A study of Mus musculus with 6 samples.

Results

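Foxp3 and 9 genes whose proteins act with it or on it were followed in regulatory T cells (Treg) with and without KAP1, a co-repressor encoded by Trim28. They are 10 of the 37991 genes in the deposited count table. The genes were chosen by name: Foxp3, the forkhead relative Foxp1, the Runx factors Runx1 and Runx3 with their shared subunit Cbfb, the NFAT factors Nfatc1 and Nfatc2, the NF-kB factor Rel, the acetyltransferase Kat5 and the deubiquitinase Usp7. All 10 had a single row in the table and all passed the filter on low counts, with at least 477 counts in every library.

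RNA was measured in 3 libraries labelled KAP1 deficient and 3 labelled KAP1 sufficient (wild type), all from YFP-positive CD4 Treg of mouse spleen. The labels give the strain background as C57BL/6 in the sufficient libraries and in deficient replicate 1, and as C57BL/7 and C57BL/8 in deficient replicates 2 and 3. The numbers run on from sample to sample and may be an entry error, so they are not read as separate strains. They name neither the allele, the Cre driver, the promoter of the YFP reporter, the age nor the number of animals. The p-values thus reflect variation among these libraries alone, and that variation may be technical. Where YFP reports Foxp3, as in the Foxp3-YFP-Cre mice often used to sort Treg, the sort itself selects on Foxp3.

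Foxp3 is the lineage factor of Treg. It binds DNA together with Runx1 or Runx3 and their partner CBFb, and with NFAT at sites where effector T cells pair NFAT with AP-1. The same factors also act on the Foxp3 gene: c-Rel, the product of Rel, helps to switch it on, NFAT acts at its enhancers, and Runx with CBFb helps to keep it on in dividing cells. Kat5 acetylates the Foxp3 protein and Usp7 removes ubiquitin from it, which protects it from degradation.

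Trim28 went against the label in 2 libraries. It stood at 23.0, 18.6 and 231 CPM (counts scaled to a common library total) in deficient replicates 1, 2 and 3, against 244, 244 and 21.2 CPM in sufficient replicates 1, 2 and 3. Deficient replicate 3 therefore held as much Trim28 as 2 of the sufficient libraries, and sufficient replicate 3 as little as 2 of the deficient ones. Whether the labels of these 2 libraries were exchanged was not tested, and every 6-library value and every order by label follows the labels as given. Each result is given for all 6 libraries as labelled and for the 4 whose Trim28 fits their label, replicates 1 and 2 of each group. Libraries held 9954344 to 10994745 counts, and the least distant pair, sufficient replicate 3 and deficient replicate 1, differed by a chi-square per degree of freedom of 2.43, above sampling noise, so none was counted as a duplicate. By the same measure sufficient replicate 3 lay 11.5 and 13.4 from sufficient replicates 1 and 2, and deficient replicate 3 lay 7.22 to 8.65 from every other library.

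With all 6 libraries as labelled, 0 of the 10 genes passed edgeR's quasi-likelihood test at a Benjamini-Hochberg adjusted p under 0.05. The background in that comparison was 0.0165% of 12158 tested genes, or 2 genes, 0.00823% in each direction. At an unadjusted edgeR p under 0.05 there were 3 of the 10, Foxp3, Runx3 and Kat5, beside 944 of all 12158 tested genes. Neither DESeq2's Wald test nor limma-voom called any of the 10 (0 each). Without sufficient replicate 3 alone, 2 of the 10 were called, Foxp3 and Cbfb, and 807 genes in all. In the 4 libraries, 4 of the 10 passed, Nfatc1 and Foxp3 lower and Cbfb and Runx1 higher in deficient cells. The background there was 17.4% of 12183 genes, with 9.96% higher and 7.39% lower, or 1214 and 900 genes, which became 1046 and 1248 with upper-quartile factors. Over the 10 genes the median absolute log2 fold change was 0.20 in the 4 libraries, against 0.15 over all tested genes.

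**Figure D1:**
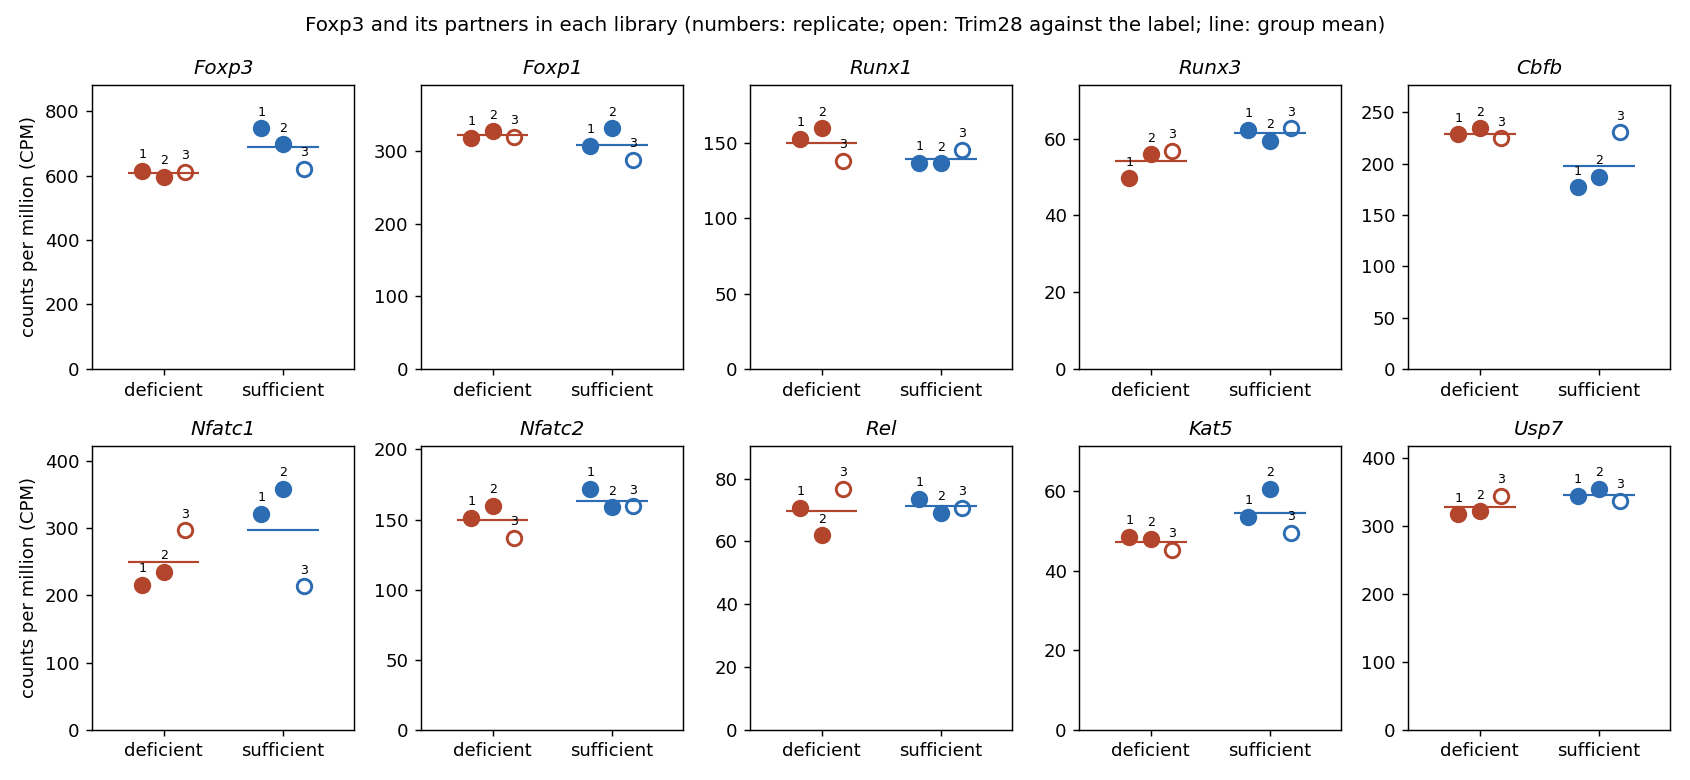
Level of each of the 10 genes in every library, in CPM on axes that start at 0, deficient libraries left and sufficient right. Points are libraries with their replicate numbers, open points are the 2 libraries in which Trim28 goes against the label, and lines are means of 3 libraries. Nfatc1 spans 213 to 359 CPM, and its open points lie with the opposite group.

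Foxp3 (ENSMUSG00000039521, chromosome X, 7573644 to 7595245, mm10) was the most abundant of the 10 per length. It stood at 614, 596 and 612 CPM in deficient replicates 1, 2 and 3, against 747, 697 and 621 CPM in sufficient replicates 1, 2 and 3. All deficient libraries lay below all sufficient ones, but the gap between the nearest libraries was 7.29 CPM, less than its counting error of 11.01 CPM. Sufficient replicate 3, low in Trim28, lay near the deficient libraries, while deficient replicate 3, high in Trim28, lay well below sufficient replicates 1 and 2 and within counting error of sufficient replicate 3. Foxp3 averaged 608 ± 9.93 CPM in deficient and 688 ± 63.2 CPM in sufficient libraries (SD, n = 3 each). Its log2 fold change of -0.18 ± 0.07 (SE) did not pass by edgeR (adjusted p = 0.632). Without sufficient replicate 3 it passed (log2 fold change -0.25, edgeR adjusted p = 0.0193, within a range of 0.0193 to 0.9999 over 14 alternatives). In the 4 libraries Foxp3 had a log2 fold change of -0.25 ± 0.05 and passed (edgeR adjusted p = 0.00509), to 0.842 of the sufficient level. That call held under all 12 alternatives run on the 4 libraries, with adjusted p-values of 4.93e-05 to 0.0332.

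Reads of Foxp3 can also fall in neighbours. Its exons share 853 bases with Flicr, a non-coding RNA on the same strand known to tune Foxp3 down in mice, 590 with Ccdc22 and 266 with Ppp1r3f on the other strand. Whether strand was used in counting is not stated in the labels or notes, and these 3 genes were named after their values were seen. Flicr stood at 28.8, 38.6 and 34.6 CPM in deficient libraries, against 35.2, 35.4 and 43.0 CPM in sufficient libraries, and did not pass in either fit (edgeR adjusted p = 0.728 in 6 libraries and 0.758 in 4). Each neighbour was far below Foxp3, the highest, Ppp1r3f, at 40.4 to 44.7 CPM in deficient and 39.8 to 43.7 CPM in sufficient libraries.

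The start regions of Foxp3 and of the genes that rose in the 4 libraries are shown because Runx and NFAT factors are among the 10. They were taken from RefSeq (GRCm38.p6, the assembly also called mm10), 250 bases before to 50 after an annotated start, and 9 of the 10 genes had at least 1, with 16 in all, the exception being Nfatc1. Capitals mark the Runx core TGTGGT or its reverse complement ACCACA, and the NFAT core GGAAA or TTTCC. Foxp3 has 2 annotated starts on the plus strand, at chrX:7579426-7579725 and chrX:7580233-7580532.
Foxp3 upstream start: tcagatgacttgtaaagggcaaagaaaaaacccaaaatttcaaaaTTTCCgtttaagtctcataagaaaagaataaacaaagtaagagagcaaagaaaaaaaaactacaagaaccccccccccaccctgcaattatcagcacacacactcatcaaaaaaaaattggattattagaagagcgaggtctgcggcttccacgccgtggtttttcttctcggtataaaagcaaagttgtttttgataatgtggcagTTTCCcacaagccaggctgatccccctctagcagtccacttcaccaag
Foxp3 downstream start: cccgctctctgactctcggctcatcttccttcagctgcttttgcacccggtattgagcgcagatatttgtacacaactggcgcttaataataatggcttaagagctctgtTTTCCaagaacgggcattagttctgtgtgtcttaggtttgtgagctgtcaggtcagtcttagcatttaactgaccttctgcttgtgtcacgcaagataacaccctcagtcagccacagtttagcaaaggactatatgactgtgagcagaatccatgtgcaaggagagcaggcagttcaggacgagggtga
The upstream window holds 2 NFAT cores, beginning 205 bases before and 2 after the start, and the downstream one holds 1, beginning 140 before it. Neither holds a Runx core. An NFAT core is common, found in 61.3% of 32851 RefSeq start regions of this length, and a Runx core in 16.8%. These letters say nothing about binding.

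Foxp1 (ENSMUSG00000030067, chromosome 6, 98925338 to 99522721), a forkhead factor that shares many sites with Foxp3 in Treg, moved little. It stood at 319, 328 and 320 CPM in deficient libraries, against 308, 332 and 288 CPM in sufficient libraries. The groups overlapped, and the sufficient libraries alone spanned the whole range. The log2 fold change was 0.06 ± 0.06 in 6 libraries and 0.02 ± 0.05 in 4 (SE), and neither passed by edgeR (adjusted p = 0.811 and 0.831).

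Cbfb (ENSMUSG00000031885, chromosome 8, 105170674 to 105217989) encodes the subunit that does not bind DNA itself but strengthens the binding of each Runx factor. It stood at 228, 234 and 225 CPM in deficient replicates 1, 2 and 3, against 177, 187 and 230 CPM in sufficient replicates 1, 2 and 3. Sufficient replicates 1 and 2 were the low libraries, and the other 4 lay between 225 and 234 CPM. Cbfb averaged 229 ± 4.94 CPM in deficient and 198 ± 28.5 CPM in sufficient libraries (SD, n = 3 each). With a log2 fold change of 0.21 ± 0.09 it did not pass (edgeR adjusted p = 0.644). Without sufficient replicate 3 it passed (0.33, edgeR adjusted p = 0.00534, within a range of 0.00534 to 0.9999 over 14 alternatives). In the 4 libraries Cbfb rose by 0.35 ± 0.05 on the log2 scale, a 1.28-fold change (edgeR adjusted p = 0.000274), and was called under all 12 alternatives there. Its start region, on the plus strand at chr8:105170424-105170723, holds no Runx or NFAT core in these letters.
Cbfb start: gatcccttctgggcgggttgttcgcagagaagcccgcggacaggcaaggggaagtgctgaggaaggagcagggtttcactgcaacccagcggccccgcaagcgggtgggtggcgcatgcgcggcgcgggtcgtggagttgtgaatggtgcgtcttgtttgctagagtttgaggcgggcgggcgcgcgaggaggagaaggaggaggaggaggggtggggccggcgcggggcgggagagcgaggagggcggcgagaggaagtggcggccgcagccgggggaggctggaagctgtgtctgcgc

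Runx1 (ENSMUSG00000022952, chromosome 16, 92601466 to 92826149) and Runx3 (ENSMUSG00000070691, chromosome 4, 135120652 to 135177990), the alternative DNA-binding partners of that subunit, had fold changes of opposite sign. Runx1 stood at 153, 160 and 138 CPM in deficient replicates 1, 2 and 3, against 137, 136 and 145 CPM in sufficient replicates 1, 2 and 3. The 3 libraries low in Trim28 were the 3 highest. Its log2 fold change was 0.10 ± 0.07 in 6 libraries (edgeR adjusted p = 0.695), and in the 4 libraries Runx1 rose by 0.20 ± 0.05 (edgeR adjusted p = 0.0197). The call was lost without sufficient replicate 1 (0.20, adjusted p = 0.0535), sufficient replicate 2 (0.19, 0.0647) or deficient replicate 2 (0.17, 0.173) and with DESeq2's Wald test (0.20, 0.184), within a range of 0.00777 to 0.184 over 12 alternatives.

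Runx3 stood at 49.7, 56.0 and 56.8 CPM in deficient libraries, against 62.3, 59.4 and 62.7 CPM in sufficient libraries. The groups did not overlap, with a gap of 2.58 CPM against a counting error of 3.32 CPM. It had a log2 fold change of -0.19 ± 0.07 in 6 libraries and -0.20 ± 0.08 in 4, and passed in neither (edgeR adjusted p = 0.632 and 0.1). Without deficient replicate 2 the 4-library value was -0.28 and passed (edgeR adjusted p = 0.0402, within a range of 0.0402 to 0.501 over 12 alternatives). Per length of exon, the ratio of the Runx1 level to the Runx3 level was 1.28, 1.19 and 1.01 in deficient libraries, against 0.914, 0.956 and 0.965 in sufficient libraries. The ratio was highest in deficient replicates 1 and 2, and in deficient replicate 3 and sufficient replicates 2 and 3 it lay within counting error of 1. Lengths cover all annotated exons, so a ratio of 1 need not mean equal numbers of transcripts. The ratio was chosen after the values were seen and was not tested.

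Runx1 has 2 annotated starts, both on the minus strand, at chr16:92826025-92826324 and chr16:92697280-92697579. They are shown because the upstream one holds 2 Runx cores, beginning 28 and 36 bases after the start, beside 2 NFAT cores, while the downstream one holds 2 NFAT cores and no Runx core.
Runx1 upstream start: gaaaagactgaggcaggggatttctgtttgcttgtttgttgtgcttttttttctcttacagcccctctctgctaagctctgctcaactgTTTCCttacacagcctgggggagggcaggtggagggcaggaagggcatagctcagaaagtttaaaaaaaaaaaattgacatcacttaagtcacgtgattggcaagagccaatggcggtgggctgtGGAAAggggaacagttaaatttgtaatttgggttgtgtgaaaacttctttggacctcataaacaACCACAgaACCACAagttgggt
Runx1 downstream start: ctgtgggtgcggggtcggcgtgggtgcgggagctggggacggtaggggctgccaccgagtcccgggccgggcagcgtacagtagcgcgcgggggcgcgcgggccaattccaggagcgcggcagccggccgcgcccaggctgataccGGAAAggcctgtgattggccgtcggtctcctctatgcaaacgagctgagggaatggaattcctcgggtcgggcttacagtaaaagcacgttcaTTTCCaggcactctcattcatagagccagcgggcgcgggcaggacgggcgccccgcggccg
Among the 16 start regions of the 9 genes, 3 held a Runx core, 1 each of Runx1, Runx3 and Rel, and 9 held an NFAT core. The forkhead core GTAAACA or TGTTTAC was in 1 of them, that of Nfatc2, against 3.65% of all regions.

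Nfatc1 (ENSMUSG00000033016, chromosome 18, 80606205 to 80713071), an NFAT factor that itself rises when T cells are stimulated, had the largest change of the 10 in the 4 libraries. It stood at 216, 236 and 297 CPM in deficient replicates 1, 2 and 3, against 322, 359 and 213 CPM in sufficient replicates 1, 2 and 3. By label the groups overlapped completely, because deficient replicate 3 was high and sufficient replicate 3 the lowest of all. The 3 libraries low in Trim28 lay at 213 to 236 CPM and the 3 high in Trim28 at 297 to 359 CPM, a gap of 61.3 CPM against a counting error of 7.12 CPM. With 6 libraries its log2 fold change was -0.26 ± 0.23 (edgeR adjusted p = 0.778). In the 4 libraries Nfatc1 fell by 0.59 ± 0.06 (log2), to 0.666 of the sufficient level (edgeR adjusted p = 9.5e-06), which put it 139th of 12183 genes by p. The call held under all 12 alternatives there, at log2 fold changes of -0.66 to -0.51.

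Nfatc2 (ENSMUSG00000027544, chromosome 2, 168476410 to 168601657), an NFAT factor present in resting T cells, did not follow Nfatc1. It stood at 151, 160 and 137 CPM in deficient libraries, against 172, 159 and 160 CPM in sufficient libraries, and the groups overlapped. Its log2 fold change was -0.13 ± 0.07 in 6 libraries and -0.08 ± 0.06 in 4 (edgeR adjusted p = 0.654 and 0.38). Per length, the ratio of the Nfatc1 level to the Nfatc2 level was 2.025, 2.08 and 3.07 in deficient replicates 1, 2 and 3. It was 2.65, 3.2 and 1.9 in sufficient replicates 1, 2 and 3. The ratio was not planned. Whether the changes of the 2 genes differ was not tested.

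Rel (ENSMUSG00000020275, chromosome 11, 23736847 to 23770970), the c-Rel gene, was the lowest of the 10 per length. It stood at 70.6, 61.9 and 76.7 CPM in deficient libraries, against 73.6, 69.2 and 70.6 CPM in sufficient libraries. The deficient libraries held both its lowest and its highest value. A log2 fold change of -0.03 ± 0.08 in 6 libraries turned to 0.05 without deficient replicate 2, and it was -0.10 ± 0.08 in 4 libraries. Neither passed by edgeR (adjusted p = 0.925 and 0.429).

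Kat5 (ENSMUSG00000024926, chromosome 19, 5603014 to 5610237), the acetyltransferase also called Tip60, stood at 48.4, 47.9 and 45.2 CPM in deficient libraries, against 53.6, 60.5 and 49.5 CPM in sufficient libraries. The groups did not overlap, but the gap of 1.1 CPM was below its counting error of 3.1 CPM. Its log2 fold change was -0.21 ± 0.08 in 6 libraries and -0.24 ± 0.08 in 4, and neither passed by edgeR (adjusted p = 0.632 and 0.0511). In the 4 libraries it passed with upper-quartile factors (-0.27), with library totals alone (-0.24), with no filter (-0.24) and without sufficient replicate 1 (-0.32), within a range of adjusted p from 0.0182 to 0.368. Its exons share 426 bases with Rnaseh2c on the other strand, which stood at 21.7 to 25.0 CPM in deficient and 23.2 to 26.3 CPM in sufficient libraries.

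Usp7 (ENSMUSG00000022710, chromosome 16, 8689595 to 8792308), the deubiquitinase, varied least of the 10, by 1.12-fold between its highest and lowest library. It stood at 318, 322 and 344 CPM in deficient libraries, against 344, 355 and 337 CPM in sufficient libraries. The 3 libraries low in Trim28 were the 3 lowest, with a gap of 6.81 CPM against a counting error of 8.0 CPM. Fold changes on the log2 scale were -0.08 ± 0.05 in 6 libraries and -0.12 ± 0.05 in 4 (edgeR adjusted p = 0.695 and 0.103), and the 4-library value passed with upper-quartile factors (-0.15, edgeR adjusted p = 0.0395, within a range of 0.0395 to 0.367 over 12 alternatives).

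**Figure D2:**
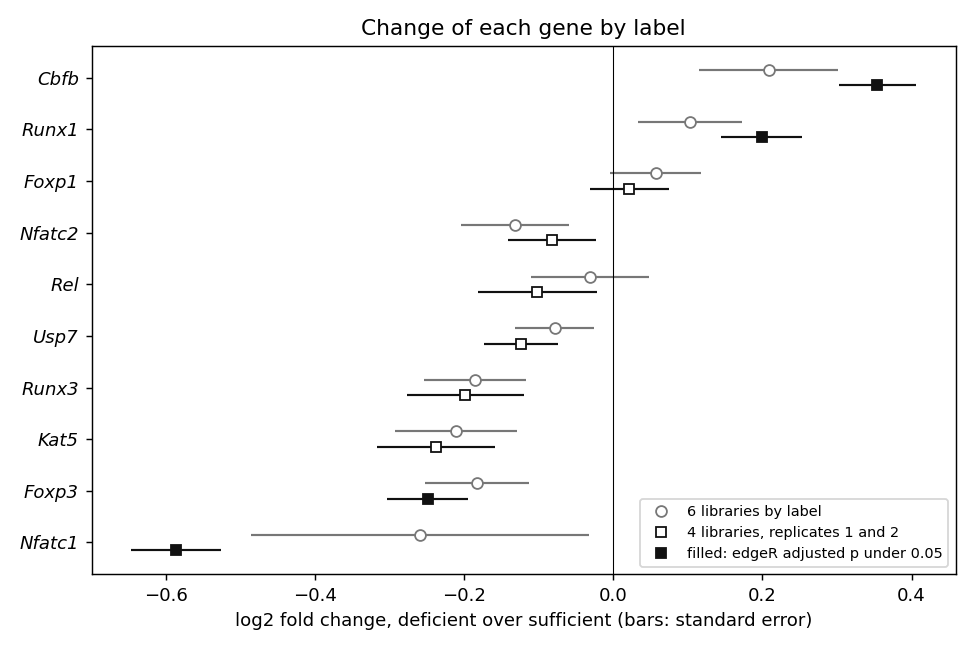
Log2 fold change of each of the 10 genes, deficient over sufficient, with standard errors, for 6 libraries as labelled (circles) and for replicates 1 and 2 of each group (squares). Filled symbols passed edgeR's test, which are Nfatc1 (-0.59), Foxp3 (-0.25), Runx1 (0.20) and Cbfb (0.35) in the 4 libraries and no gene in the 6.

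Different kinds of order over the 6 libraries were seen. By label, 3 of the 10 genes did not overlap between the groups, all lower in deficient libraries: Foxp3, Runx3 and Kat5. Over all tested genes 12.8% did not overlap by label, 6.73% higher and 6.05% lower. Between replicates 1 and 2 of each group 7 of the 10 did not overlap, 2 higher and 5 lower, where 57.9% of all tested genes did not (28.5% higher and 29.4% lower). By Trim28, 4 of the 10 did not overlap between the 3 libraries low in Trim28 (deficient replicates 1 and 2 and sufficient replicate 3) and the 3 high in it: Cbfb and Runx1 were higher, and Nfatc1 and Usp7 lower, in the low libraries. Over all tested genes 26.4% did not overlap by Trim28, 11.9% higher and 14.5% lower. These sets were taken from a measured gene, so no mean or test between them is given. Of the 7 genes, the gap was larger than its counting error for Nfatc1 and for Runx1 (7.45 against 5.16 CPM), and smaller for the other 5, among them Cbfb (3.89 against 6.56 CPM). The remaining 3, Nfatc2, Foxp1 and Rel, overlapped both ways.

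**Figure D3:**
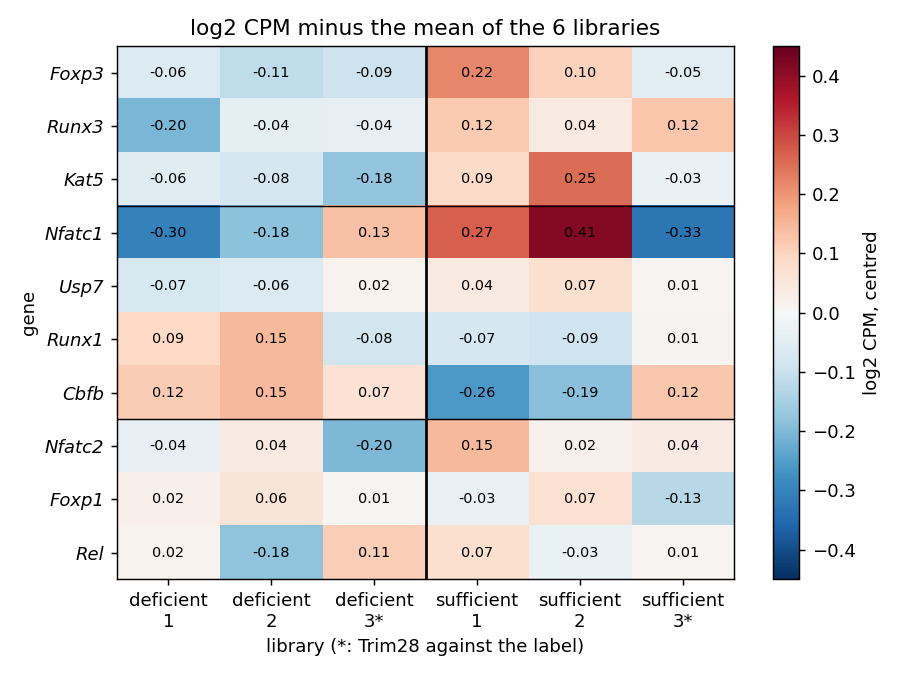
Log2 CPM of each of the 10 genes in each library minus that gene's mean over the 6 libraries, deficient libraries left of the line and sufficient right. Horizontal lines separate the genes that did not overlap by label (top), by Trim28 (middle) and neither way (bottom); starred libraries go against their label in Trim28, and Nfatc1 runs from -0.33 in sufficient replicate 3 to 0.41 in sufficient replicate 2.

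Levels between genes were compared as CPM per kilobase of exon, with the length taken over all annotated exons of a gene. That length can exceed the one of the transcripts in use, so the order between genes is approximate. Foxp3 averaged 142 ± 13.1 over the 6 libraries (SD), then Cbfb 61.4 ± 7.19, Usp7 43.4 ± 1.85, Nfatc1 36.6 ± 8.14 and Foxp1 23.0 ± 1.15. Nfatc2 averaged 14.8 ± 1.1, Kat5 14.5 ± 1.56, Runx1 12.1 ± 0.803, Runx3 11.6 ± 0.965 and Rel 9.43 ± 0.667. The libraries of Foxp3 and of Cbfb lay apart from those of the next gene in the order. Those of Usp7 overlapped Nfatc1, and each neighbouring pair from Nfatc2 down to Rel overlapped, so their order is not resolved beyond the spread. Relative to its mean, Nfatc1 varied most over the 6 libraries, with a coefficient of variation of 22.2% against 1.88% from counting alone, and Usp7 least, with 4.26% against 1.7%.

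**Figure D4:**
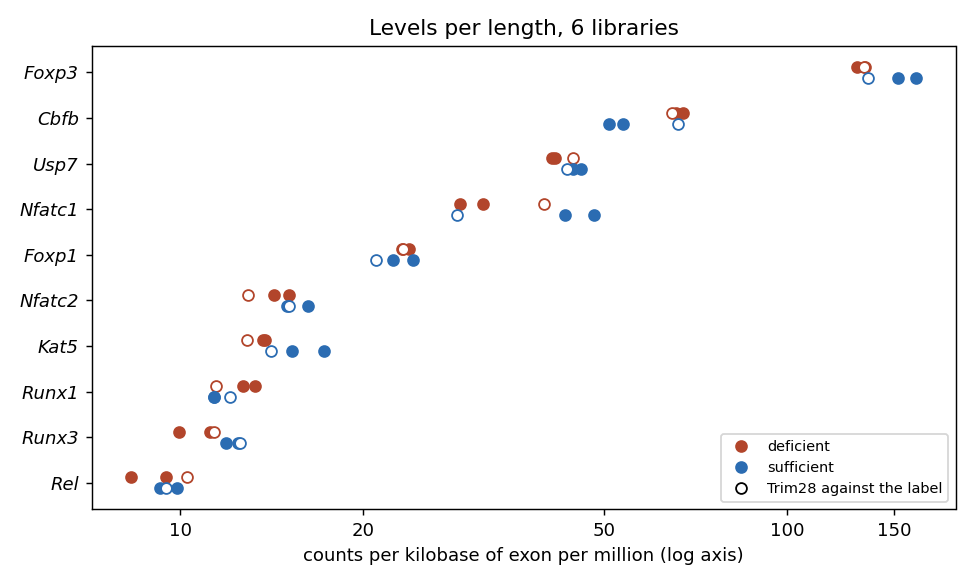
CPM per kilobase of exon of each of the 10 genes in each library on a log axis, ordered by mean level, with deficient libraries above sufficient ones and open points where Trim28 goes against the label. Foxp3 lies at 130 to 163, above every other gene, and Rel lies at 8.29 to 10.3.

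The genes nearest to Foxp3 in their course over the 6 libraries were found by the root mean square difference between centred log2 CPM values. Candidates were 5917 genes with a mean of at least 5 log2 CPM. Genes without a symbol, and all whose symbol begins with Gm, were left out. The 5 nearest were Ap1g2 (0.0119), Cic (0.0165), Ankrd11 (0.0179), Hcfc1 (0.0222) and Rbm14 (0.023). Cic, a transcriptional repressor, stood at 402, 399 and 398 CPM in deficient libraries, against 498, 454 and 411 CPM in sufficient libraries, an order of high and low libraries like that of Foxp3. Over the 4 libraries alone, 1 of these 5 was again among the 5 nearest. Of the 9 partners the nearest was Kat5 (0.089, rank 968), and the farthest were Nfatc1 (0.218, rank 5062) and Cbfb (0.278, rank 5572).

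Around the 10 genes, 153 other genes on 10 lists of related factors, enzymes and targets were examined, and 143 were tested. With 6 libraries 0 passed by edgeR, DESeq2 or limma-voom. By edgeR 19 had an unadjusted p under 0.05, beside 944 of all 12158 tested genes. Without sufficient replicate 3 there were 10 higher and 7 lower. In the 4 libraries 20 were higher and 18 lower, 26.6% of those tested against the background of 17.4%, with a median log2 fold change of 0.01 against -0.002 over all genes. Without sufficient replicate 2 there were 13 higher and 18 lower, and without deficient replicate 1 there were 14 and 14; DESeq2's Wald test called 10 and 13, and with upper-quartile factors there were 15 and 27. Of the genes named below, DESeq2 did not call Foxn2, Tle4, Crebbp, Pim1, Jun, Gata3, Prdm1 and Ifng (adjusted p = 0.0553 to 0.314). All fold changes of these genes below are from the 4 libraries. The counts per list below stand beside 9.96% higher and 7.39% lower over all tested genes there. No list was tested against these shares.

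Among 13 other tested genes of NFAT and calcineurin, 5 rose and 0 fell, with 8 not passing by edgeR. Nfatc1, which fell, and Nfatc2 are counted with the 10 genes and not among these 13. The 5 genes that rose include both kinds of calcineurin subunit, the phosphatase that sends NFAT to the nucleus. The regulatory subunit gene Ppp3r1 had a log2 fold change of 0.53 ± 0.06 (SE, edgeR adjusted p = 1.84e-05) and the catalytic subunit gene Ppp3cb of 0.34 ± 0.06. Rcan3, a regulator of calcineurin, rose by 0.37 ± 0.06, and Csnk1a1, a kinase that acts against NFAT, by 0.26 ± 0.05. Ppp3r1 stood at 122, 124 and 117 CPM in deficient libraries, against 84.8, 86.5 and 114 CPM in sufficient libraries, so deficient replicate 3 did not lie with sufficient replicates 1 and 2 although Trim28 was high in it.

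Of 11 other forkhead genes 1 rose and 2 fell. Foxp4, the relative of Foxp1, fell by 0.58 ± 0.05 (edgeR adjusted p = 3.67e-06), at 150, 140 and 170 CPM in deficient libraries, against 219, 215 and 156 CPM in sufficient libraries. Foxm1, a factor of dividing cells, had a log2 fold change of -0.62 ± 0.14 and was no longer called when sufficient replicate 2 (-0.44) or deficient replicate 1 (-0.43) was left out. Foxn2 (0.28 ± 0.06) was higher. Of 7 Runx cofactor genes the corepressor genes Tle4 (0.24 ± 0.08) and Tle3 (-0.25 ± 0.06) moved apart, and neither was called when sufficient replicate 2 (0.16 and -0.19) or deficient replicate 1 (0.20 and -0.20) was left out. Tle4 was called in 7 of 12 alternatives, and with upper-quartile factors it stood at 0.21 and did not pass.

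Of 16 other NF-kB genes 3 rose and 2 fell. Malt1, the protease that links the T cell receptor to NF-kB, fell by 0.41 ± 0.05 (edgeR adjusted p = 7.07e-05), and Nfkbid, a nuclear member of the IkB family that takes part in Foxp3 induction with c-Rel in mice, by 0.39 ± 0.06. Malt1 stood at 142, 145 and 186 CPM in deficient libraries, against 189, 196 and 137 CPM in sufficient libraries, high and low as Nfatc1 was. Chuk (0.29 ± 0.06), which lost its call without deficient replicate 1 (0.21), and Nfkbiz (0.25 ± 0.06), which lost it without sufficient replicate 1 (0.18), were higher.

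Among 17 other subunit genes of the Kat5 complex, 1 rose and 1 fell. Epc1, a scaffold of that complex, rose by 0.80 ± 0.08 (edgeR adjusted p = 3.09e-05), at 261, 224 and 130 CPM in deficient libraries, against 148, 131 and 242 CPM in sufficient libraries. The libraries low in Trim28 were high in Epc1, in each group. Yeats4, a reader of acetylated histones, fell by 0.41 ± 0.07. Of 10 other acetylase and deacetylase genes 2 rose and 4 fell, among them the acetyltransferase gene Kat2b (0.40 ± 0.10, but 0.24 without sufficient replicate 2) and the deacetylase gene Hdac7 (-0.29 ± 0.05), whose protein binds Foxp3. Hdac9, another deacetylase gene, fell by 2.17 ± 0.28 from low levels (1.19, 2.11 and 7.0 CPM in deficient libraries, against 7.22, 7.76 and 0.582 CPM in sufficient libraries), and Crebbp (-0.23 ± 0.05) was not called when deficient replicate 2 was left out (-0.19). Of 12 genes of ubiquitin and kinase control Cdk2, a kinase that phosphorylates Foxp3, fell by 0.36 ± 0.07, while Pim1 (0.17 ± 0.05) was not called when sufficient replicate 2 (0.12) or either deficient replicate (0.18 and 0.16) was left out, nor with upper-quartile factors (0.14).

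Of 31 other DNA-binding partners of Foxp3 4 rose and 3 fell. The AP-1 genes Jun (0.41 ± 0.09) and Junb (-0.31 ± 0.05) moved apart. Gata3 (-0.24 ± 0.06) was not called when sufficient replicate 1 or deficient replicate 1 was left out (-0.20 each). Of 20 genes that Foxp3 activates 2 rose and 3 fell, with Icos at -0.60 ± 0.07, Prdm1 at -0.54 ± 0.13 (-0.43 and not called without deficient replicate 1) and Klrg1 at -4.09 ± 0.35, on as few as 3 counts in deficient replicate 1. Ikzf2, the Treg factor Helios, was higher (0.19 ± 0.05) and not called when sufficient replicate 2 (0.18) or deficient replicate 1 (0.16) was left out. Of 11 genes that Foxp3 represses 1 rose and 2 fell, with the median log2 fold change at 0.05. Among them were Ifng (-1.58 ± 0.37), the gene of interferon gamma, at 0.777 to 2.87 CPM over all libraries, and the phosphatase gene Ptpn22 (0.26 ± 0.07). Ifng was not called when sufficient replicate 1 or deficient replicate 1 was left out (-1.39 and -1.49), and Ptpn22 was not called without sufficient replicate 1 (0.26), sufficient replicate 2 (0.25) or deficient replicate 1, where its value was 0.12.

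Markers of Treg and of other cells were measured beside these genes. The 8 defining markers of Treg summed to 5641 to 5761 CPM in deficient and 5582 to 5818 CPM in sufficient libraries, and none was at 0. The sum includes Foxp3. Ikzf2 was called higher in the 4 libraries (0.19 ± 0.05) and Cd4 lower (-0.15 ± 0.05, edgeR adjusted p = 0.0456), the call on Cd4 holding in 6 of 12 alternatives. B cell markers, 9 genes, summed to 544 to 606 CPM in deficient and 581 to 696 CPM in sufficient libraries, with Ighm making up most and Pax5 or Ms4a1 at 0 in 1 group. Ighm fell by 0.27 ± 0.05 in the 4 libraries, and it was lower in each library low in Trim28, as Nfatc1 was. Cd22 also passed there, at 3.92 to 7.09 CPM in deficient and 6.02 to 12.6 CPM in sufficient libraries. Igkc fell by 2.55 ± 0.57, at 0.402 to 4.03 CPM over all libraries, and was not called without sufficient replicate 2 (-1.60). Klrb1c rose by 1.94 ± 0.22, while Nkg7 (-0.48 ± 0.14) was not called by DESeq2, nor without sufficient replicate 1 (-0.35) or deficient replicate 2 (-0.43). The 11 myeloid and dendritic markers summed to at most 3.27 CPM in deficient and 1.88 CPM in sufficient libraries, with Itgax, Cd209a, Cd14 and Siglech at 0 in all. The 5 CD8 T cell markers summed to 12.6 to 17.4 CPM in deficient and 14.1 to 20.2 CPM in sufficient libraries. The 6 natural killer markers summed to 27.8 to 30.3 and 25.0 to 29.3 CPM, with Ncr1 and Klra8 at 0. The 6 markers of conventional CD4 T cells summed to 422 to 527 and 394 to 446 CPM. Most of that last sum was Il7r, at 327.7 to 450.2 CPM over all libraries, while Il2, Il4 and Il21 each reached at most 0.99 CPM. Mitochondrial genes took 1.34%, 1.33% and 1.61% of counts in deficient libraries, against 1.92%, 2.1% and 1.41% in sufficient libraries, higher where Trim28 was high. The part of these in the changes of the 10 genes was not tested. In bulk RNA, fewer cells of a type and less RNA per cell cannot be told apart.

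Positive values in the authors' deposited table are read as higher in sufficient cells because Trim28 stands at 3.11 there. At an adjusted p under 0.05 that table calls 6.87% of the genes that have one, and 2 of the 10. In the authors' deposited table Nfatc1 had a log2 fold change of 0.50 ± 0.07 (SE, adjusted p = 3.02e-11) and Cbfb of -0.23 ± 0.07 (adjusted p = 0.0304). The authors' q-values beside these were 2.94e-09 for Nfatc1 and 0.534 for Cbfb, so by q-value Cbfb was not under 0.05. Foxp3 (0.15, adjusted p = 0.205) and Runx1 (-0.15, adjusted p = 0.183), which passed in the 4 libraries, did not pass in the authors' deposited table. Nor did the other 6 there, with adjusted p-values from 0.42 to 0.981. Trim28 stood at 3.11 ± 0.08 (SE) there. Deficient over sufficient, it stood at -3.54 ± 0.08 in the 4 libraries, a value that follows from choosing them by Trim28. By label in the 6 libraries it was -0.90 ± 1.46. The authors' deposited table therefore does not rest on all 6 libraries as labelled, and its groups may differ from those of either fit above. Which libraries entered it, and in which groups, is not stated and was not tested. It is not independent of the values above.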

How the data were processed

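Total RNA of 6 Treg libraries was prepared with a TruSeq kit, per the labels. The submitters' processing notes name TopHat2 2.1.1, HTSeq 0.7.2, DESeq2 and mm10, with no role or order given, and neither the annotation release nor the strand setting is stated in them or in the labels. The authors deposited raw counts per Ensembl gene for 37991 genes. They also deposited their own comparison, with a mean normalized signal, a log2 fold change and its standard error, a test score, p-values, adjusted p-values and q-values per the file headers. Symbols matched 32919 rows, and the other rows held 0.603% of counts. Positions and exon lengths are from GENCODE M21 (mm10), each length being the union of all annotated exons of a gene. Groups follow the sample titles.

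Counts were tested over all genes with edgeR 4.0.16 (R 4.3.3), quasi-likelihood with robust dispersion, TMM factors, filterByExpr and Benjamini-Hochberg adjustment at 0.05. DESeq2 1.42.0 (own size factors and independent filtering, without filterByExpr), limma-voom (limma 3.58.1), other factors, no filter, a non-robust fit, a replicate block and leaving out each library were alternatives. CPM uses library totals, and 3 counts equal 0.273 to 0.301 CPM. Counting errors cover counting only. Tables and plots used Python 3.11.15, pandas 2.3.3, numpy 2.4.6 and matplotlib 3.10.9. The fits were also run on simulated counts with known changes, dispersions taken from these libraries and labels that hold. Such counts cannot show how a fit behaves when libraries go against their label.

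The members, lists and the 4-library fit were chosen with earlier results of these data known. The text names all 10 members, Trim28, at most 4 called genes of each list (2 of lowest p where no gene passed; for markers given as sums) and the 5 genes nearest to Foxp3. Of 204 list entries besides the members, 202 matched. A listed gene that the rule selects is not reported here.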

Additional observations from a re-analysis of the deposited data

How the results depend on the processing

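With 6 libraries as labelled, the 2 genes called in all became 6 with DESeq2's Wald test, 3 with edgeR and no filter, 1 with limma-voom, 1 with the non-robust fit and 0 with the replicate block, and 1 to 807 without single libraries, highest without sufficient replicate 3. The 0 called among the 10 genes stayed at 0 except without sufficient replicate 3 (0 to 2 without single libraries). On 4 libraries 2114 genes were called, against 930 by DESeq2, 2607 by edgeR with no filter, 2359 with the replicate block, and 1632 to 1717 without single libraries, where the lone library is assumed to vary like the other group. DESeq2 was run with its own size factors and independent filtering in place of the filter on low counts, so its counts differ from the others in more than the test. The number called among the 10 genes was 4 on 4 libraries, and 4 under the replicate block. It was 3 to 6 under the others that kept all 4 libraries. Which genes passed also changed: DESeq2's Wald test did not call Runx1, and library totals alone added Kat5. Without single libraries, which leaves 1 library in a group, Runx1 stood at 0.17 to 0.23 and Kat5 at -0.32 to -0.15. The block changed no call of the 10 genes. Whether replicate numbers mark pairs was not resolved. Same-numbered libraries deviated from their labelled group means with correlations of -0.365, -0.292 and -0.613, and no library correlated best with its own number. Both libraries against their label bear number 3 and shift those means, so these correlations cannot decide on pairing. Of the values of the 10 genes, 137 of 140 with 6 libraries and 108 of 120 with 4 kept their direction and their side of the threshold. Those that changed sign were not called: Rel with 6 libraries, at 0.0507 without deficient replicate 2 (-0.0972 to 0.0507 without single libraries), and Foxp1 with 4, at -0.00971 with upper-quartile factors and -0.0281 without sufficient replicate 1 (-0.0281 to 0.0701 without single libraries). Of the 5 genes nearest to Foxp3, 1 remained among the 5 nearest over 4 libraries. The number of the 10 genes that did not overlap by Trim28 stayed at 4 with TMM factors, an alternative chosen after seeing the data. The cause of these shifts was not tested. Changes under the level of 3 counts, 0.273 to 0.301 CPM, cannot be seen at this depth, and all 10 genes lie far above it.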
